A study of Mus musculus with 16 samples.

Results

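The autophagy machinery was followed here as 33 genes, out of 22911 genes with a symbol on the array. They were chosen by name: 5 genes of the initiation complex, 5 of the class III PI3-kinase complex, 5 of membrane expansion, 10 of the conjugation systems, 5 of the Atg8 family and 3 cargo receptors. Each gene was represented by the brightest of its probes, matched through the RefSeq accession on the array, and all 33 genes had a probe detected well above background on each of the 16 arrays. Every gene was therefore tested in every comparison.

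Autophagy carries cytoplasm to the lysosome inside a membrane sac that is built on demand. The Ulk1 kinase complex starts the sac, the class III PI3-kinase marks its membrane with a phosphoinositide lipid, and lipid carriers enlarge it. A ubiquitin-like conjugation system then fixes Atg8 family proteins such as LC3 to the membrane, where cargo receptors such as p62 dock. In adipose tissue the pathway is known for clearing mitochondria from beige fat cells and for its part in adipocyte differentiation. The arrays measured mRNA, not protein, lipid attachment or the flow of cargo.

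The study compared Adipo-Pgam1 KO mice, carrying Adipoq-Cre and Pgam1 flox/flox, with littermate controls without Cre. The tissues here are brown adipose tissue (BAT) and gonadal white adipose tissue (gWAT). By western blot, the paper reported more p62 protein and upregulated mTor signalling in gWAT of Adipo-Pgam1 KO. It found no significant change of such signals in BAT, and left undetermined whether the deletion inhibits autophagy in gWAT. Those blots measured protein, whereas the values below are mRNA. Pgam1 encodes a phosphoglycerate mutase of glycolysis, and Adipoq-Cre acts in adipocytes, so that other cells of a whole tissue keep the gene. All mice were male C57BL/6NCrSlc and 16 weeks of age, except replicate 4 of the Adipo-Pgam1 KO group in both tissues, which was 14 weeks. There were 4 arrays in each of the 4 groups, and the series text calls them independent samples without saying which BAT and gWAT samples came from the same mouse.

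Levels below are log2 signal over the 75th percentile of the array, changes are differences of group means on that scale, and "passed the test" means an adjusted p under 0.05 in limma over all genes tested. The targeted gene separated the BAT groups as labelled, at 7.82 to 8.07 in controls and 6.03 to 6.43 in Adipo-Pgam1 KO. In gWAT it lay at 5.07 to 5.67 in controls and at 5.95 to 6.50, which is higher, in the 4 arrays whose label reads Adipo-Pgam1 KO. These are called the labelled KO arrays. For gWAT of these mice the paper reported less Pgam1 by PCR and by western blot, and lower enzyme activity. The array values go the other way, and the reason was not tested. Directions in gWAT therefore rest on the label. The array's 75th percentile was 401 to 451 in BAT controls, 650 to 916 in BAT of Adipo-Pgam1 KO, 570 to 855 in gWAT controls and 657 to 831 in the labelled KO arrays of gWAT. The arrays lay on 3 slides and were scanned on 2 days, gWAT control replicate 4 and the labelled KO arrays on the later day. In each tissue only 1 control array shared the slide of the 4 KO arrays, which was replicate 4, and the other 3 controls lay on another slide. In gWAT, control replicate 1 was the lowest of its group for 28 of the 33 genes, and replicate 4 of the labelled KO arrays was the lowest of its group for 20.

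In BAT, the machinery mostly stood below control level in Adipo-Pgam1 KO mice. Of the 33 genes, 18 were lower and 1, Atg13, was higher, so that 19 passed the test (57.6%), whereas 61.5% of all 14280 genes tested passed. The direction was uneven: 54.5% of the autophagy genes were lower against 34% of all genes, and 3.03% were higher against 27.5%. The share of genes changed was thus near the background, while the split of directions was not. The groups did not overlap for 19 of the 33 genes, and for 57.1% of all genes. The median log2 change was -0.33, beside -0.08 for all genes tested. Over all 22911 genes with no filter on dim probes the median was -0.35, close to that of the list. That set includes genes not well above background, whereas all 33 were, so its median is no like background for the list. Against the single control on the slide of the KO arrays, all 18 lower genes were lower on each of the 4 KO arrays. That control is 1 of the 4 behind the calls, so this restates them and is no separate check of the slide. The median over the 33 genes against it was -0.35. With the slide as a fixed block 13 genes passed, 12 of them among the 19, and the calls of Atg13, Atg2b, Atg4a, Atg4b, Atg7, Atg9a and Map1lc3b were lost.

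**Figure D1:**
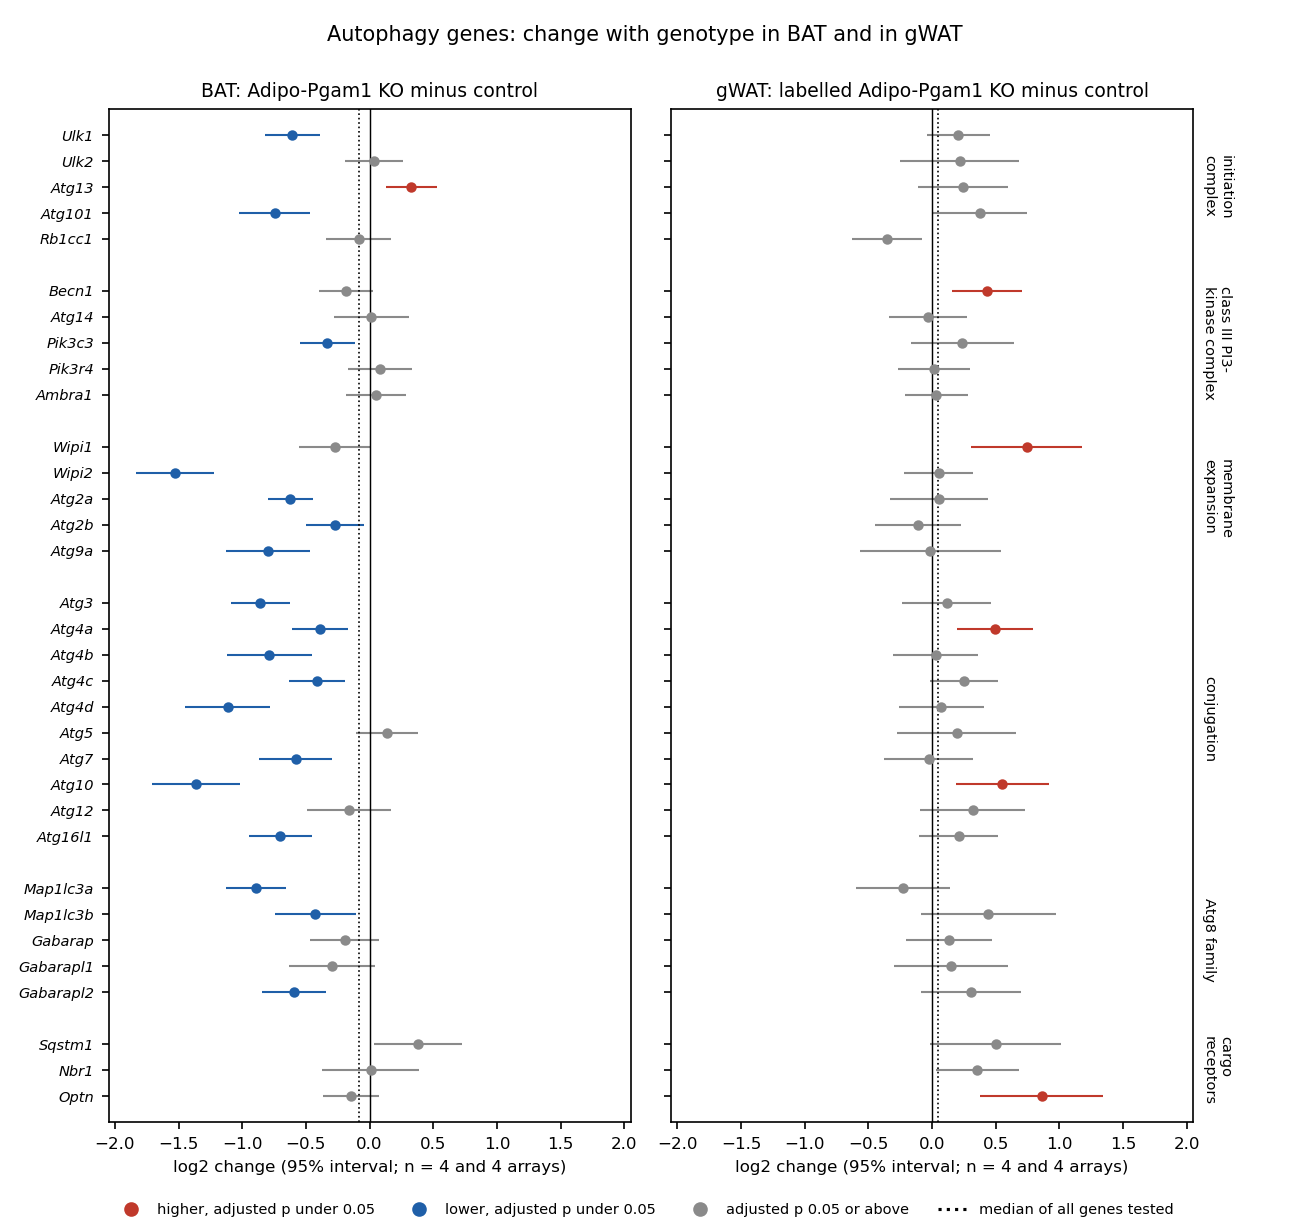
Log2 change of the 33 autophagy genes between genotypes in BAT (left) and gWAT (right), with 95% intervals from limma (n = 4 arrays per group), grouped by role; blue and red points passed an adjusted p of 0.05 and the dotted line is the median of all genes tested. In BAT 18 genes lie to the left as blue points and Atg13 is the only red point, whereas in gWAT 5 genes are red and none is blue.

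The direction in BAT depended on how the arrays were scaled. With spike-in scaling the median of all genes moved to 0.46 and that of the 33 genes to 0.21, and 13 of the genes were higher and 5 lower. Only 6 of the 19 calls held there with their direction, 12 genes turned sign, and Rb1cc1, Atg12, Gabarap, Becn1 and Optn turned to higher past the threshold. With scaling by Actb and Rplp0 the medians moved to -0.67 and -0.92, and 31 genes were lower and none higher. Both scalings shift every gene of an array alike, so the distance of -0.25 between the list and all genes tested is fixed and carries no evidence of stability. Wipi2, Atg10, Atg4d, Atg3 and Map1lc3a were lower under both. The statements that follow are relative to the 75th percentile.

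**Figure D2:**
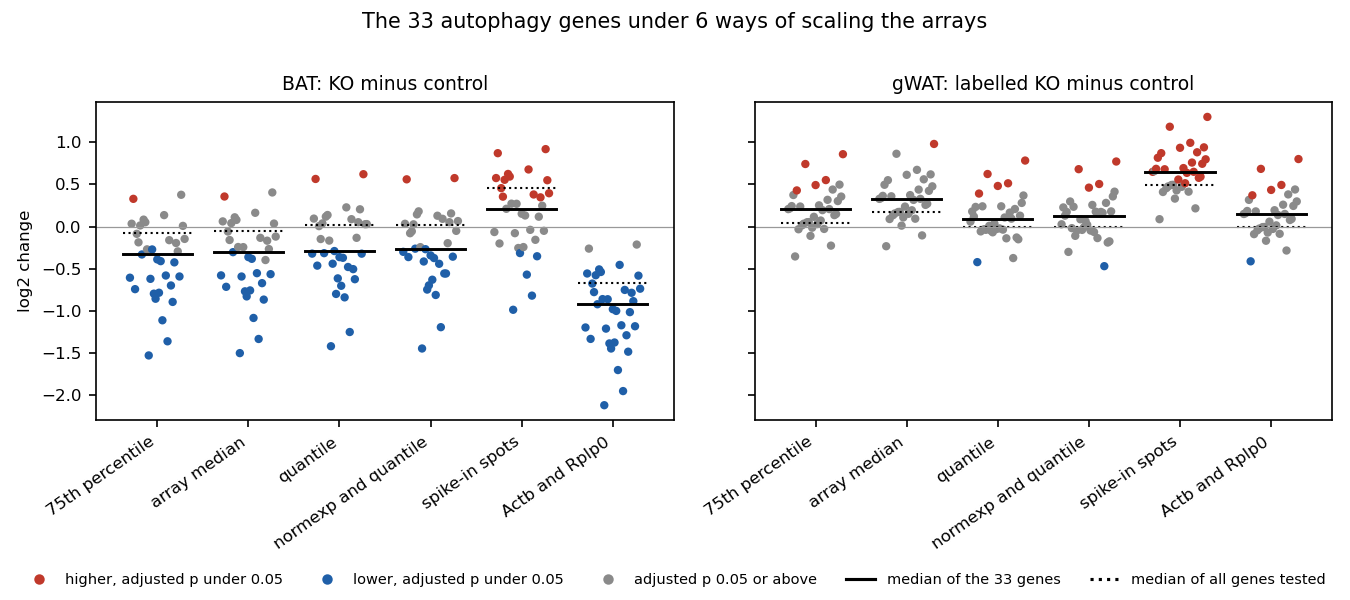
Log2 change of the 33 genes (points) in BAT and gWAT under 6 ways of scaling the arrays, with the median of the 33 genes (solid line) and of all genes tested (dotted line); colours mark genes past an adjusted p of 0.05. The solid line stays below the dotted line in BAT and above it in gWAT in every column, while both lines move together by construction when the spike-in spots or Actb and Rplp0 set the scale.

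Whole tissue was measured, so fewer adipocytes and less RNA per adipocyte cannot be told apart. Adipocyte markers were lower in BAT of Adipo-Pgam1 KO (7 of 8, median -1.09), and the summed signal of the list was 1882 to 2285 times the 75th percentile in controls and 689 to 989 in KO. Brown adipocyte markers were lower for 5 of 9, with sums of 2488 to 2634 and 947 to 1460. Macrophage markers were higher for 9 of 10 (median 2.99), with sums of 28.0 to 40.0 in controls and 103 to 151 in KO. Fibroblast and preadipocyte markers were higher for 5 of 6 (median 1.07), and none of the 5 endothelial markers passed the test. T cell markers were higher for 3 of the 5 tested (median 1.35), with sums of 3.56 to 6.15 in controls and 3.92 to 5.75 in KO. Skeletal muscle genes set 2 arrays apart: Myh4 was at 5.02 and 2.80 in KO replicates 1 and 3 and was not well above background on the other BAT arrays, and the sums over that list were 40.0 to 49.0 in controls and 6.52 to 107.1 in KO. Without KO replicates 1 and 3 together, 16 of the 19 calls held and no other gene passed, with a median of -0.34, and those of Atg2b, Map1lc3b and Pik3c3 were lost. All adipocyte, brown adipocyte and macrophage markers were measured on some arrays of both groups, so none of them was absent. The part of these cell types in the changes of the autophagy genes was not tested.

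Among the initiation genes in BAT, Ulk1 and Atg101 were lower and Atg13 was higher. Ulk2 and Rb1cc1, the scaffold also called FIP200, did not pass by their brightest probes. Tested on its own, the dimmer probe of Ulk2 did pass as lower, at -0.28 (adjusted p = 0.04 in limma). So did dimmer probes of Rb1cc1 at -0.48 and -0.56 (adjusted p = 0.00999 and 0.0127 in limma), while its other probes did not. Ulk1, the kinase that starts the process, was at 4.98, 4.82, 4.98 and 4.93 in controls and at 4.38, 4.22, 4.23 and 4.45 in Adipo-Pgam1 KO. No KO array reached the lowest control, and Ulk1 changed by -0.61 (standard error 0.09, adjusted p = 6.16e-04 in limma). Atg101, a partner that steadies Atg13, was at 5.12, 5.03, 4.84 and 4.80 in controls and at 4.17, 4.05, 4.16 and 4.45 in KO. The groups were again apart, and Atg101 changed by -0.74 (standard error 0.12, adjusted p = 8.27e-04 in limma). Atg13, the adaptor that holds the kinase in the complex, changed the other way, by 0.33 (adjusted p = 0.0111 in limma), but by -0.26 under scaling by Actb and Rplp0.

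The class III PI3-kinase complex had the fewest changes in BAT beside the cargo receptors. Only Pik3c3, the catalytic subunit Vps34, passed the test of its 5 genes, and the other 4 lay between -0.19 and 0.08. Pik3c3 was at 0.13, 0.25, 0.40 and 0.39 in controls and at -0.01, -0.09, -0.01 and -0.04 in KO. All KO arrays lay below all controls in a narrow range, and the change was -0.33 (standard error 0.09, adjusted p = 0.0139 in limma), which became 0.21 under spike-in scaling. Becn1, the Beclin subunit of the complex, was at 1.16, 1.31, 1.22 and 1.17 in controls and at 0.96, 0.93, 1.04 and 1.18 in KO. 1 KO array lay inside the range of the controls, and the difference of -0.19 did not pass (adjusted p = 0.111 in limma).

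Of the genes of membrane expansion, 4 of 5 were lower in BAT. Wipi2, which reads the phosphoinositide mark and brings Atg16l1 to the membrane, was at 2.79, 2.73, 2.82 and 2.28 in controls and at 1.03, 1.12, 1.13 and 1.21 in Adipo-Pgam1 KO. Even its lowest control, replicate 4, was well above the highest KO array. Its change of -1.53 (standard error 0.13, adjusted p = 3.26e-05 in limma), a level 2.89 times lower, was the largest of the 33 genes in BAT, and it was -1.15 against the control on the same slide. Atg9a, a lipid scramblase carried on vesicles, changed by -0.80, and the lipid transfer proteins Atg2a and Atg2b by -0.62 and -0.27. Wipi1, the relative of Wipi2, differed by -0.27 in BAT and did not pass (adjusted p = 0.0862 in limma).

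Of the conjugation genes, 8 of 10 were lower and none was higher. Atg10, the E2 enzyme that passes Atg12 to Atg5, was at 2.52, 2.43, 2.92 and 2.61 in controls and at 1.29, 1.06, 1.11 and 1.56 in KO. The groups were far apart, and Atg10 changed by -1.36 (standard error 0.15, adjusted p = 9.55e-05 in limma), a level 2.57 times lower. Its dimmer second probe changed less, by -0.82 (adjusted p = 0.00117 in limma). Atg3, the E2 enzyme that passes Atg8 proteins to their lipid, was at 4.17, 4.33, 4.36 and 4.31 in controls and at 3.39, 3.29, 3.46 and 3.61 in KO. It changed by -0.86 (standard error 0.10, adjusted p = 1.31e-04 in limma) without overlap. Both E2 enzymes were thus lower, as was their shared E1 enzyme Atg7, by -0.58. Atg16l1, which places the Atg12 and Atg5 conjugate on the membrane, was at 3.65, 3.79, 3.85 and 3.50 in controls and at 3.01, 3.05, 2.84 and 3.09 in KO, a change of -0.70 (standard error 0.11, adjusted p = 6.31e-04 in limma). The conjugate's own parts did not pass: Atg5 differed by 0.14 and Atg12 by -0.16, and both turned sign under other scalings.

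The 4 Atg4 proteases, which trim Atg8 proteins and also release them from lipid, were all lower in BAT, although Atg4a and Atg4c turned positive with spike-in scaling. Atg4d was at 5.13, 5.22, 5.20 and 4.76 in controls and at 3.66, 4.01, 4.06 and 4.13 in KO. The lowest control was again replicate 4 and lay above every KO array, and the change was -1.11 (standard error 0.15, adjusted p = 2.40e-04 in limma). Atg4b changed by -0.79, Atg4c by -0.41 and Atg4a by -0.39. The second probe of Atg4b, which was dimmer, changed by only 0.01, so the 2 probes of this gene disagreed.

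The Atg8 family held 3 lower genes of 5 in BAT, of which Map1lc3b turned positive with spike-in scaling. Map1lc3a, an LC3 protein, was at 4.91, 4.99, 4.95 and 4.99 in controls and at 4.11, 3.98, 3.89 and 4.27 in KO. The controls were nearly identical and all KO arrays lower, and Map1lc3a changed by -0.89 (standard error 0.10, adjusted p = 1.21e-04 in limma). Map1lc3b, the LC3 form most used as a marker of autophagosomes, was at 6.95, 6.91, 7.03 and 6.98 in controls and at 6.28, 6.36, 6.63 and 6.90 in KO. Its highest KO array, replicate 4, almost touched the lowest control, and the change of -0.43 (standard error 0.14, adjusted p = 0.0275 in limma) was lost without control replicate 1 or 3 or KO replicate 1 or 2 (adjusted p from 0.0516 to 0.0781). Gabarapl2 changed by -0.59, while Gabarap and Gabarapl1 differed by -0.20 and -0.29, did not pass, and turned positive with quantile normalization. Atg2b, named above, was lost in 6 of its 8 fits with an array left out, those without any of the 4 controls or without KO replicate 2 or 3 (adjusted p from 0.0532 to 0.11). The other 17 calls in BAT held in all 8. A dimmer probe of Atg2b, tested on its own, was lower by more, at -0.76 (adjusted p = 1.26e-04 in limma).

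No cargo receptor passed the test in BAT by its brightest probe. Sqstm1, which encodes p62 and ties ubiquitin-marked cargo to LC3, was at 6.84, 6.74, 6.90 and 6.36 in controls and at 6.83, 7.05, 7.18 and 7.29 in Adipo-Pgam1 KO. The groups overlapped at 1 KO array, and the difference of 0.38 (standard error 0.15) stayed short of the threshold (adjusted p = 0.0565 in limma). Its dimmer second probe differed by 1.03 and did pass when each probe was tested on its own (adjusted p = 2.08e-04 in limma). With the slide as a fixed block the brightest probe differed by 0.72 and passed (adjusted p = 0.0168 in limma). Optn, optineurin, a receptor for mitochondria and bacteria, was at 3.42, 3.18, 3.19 and 3.38 in controls and at 3.12, 3.05, 3.22 and 3.18 in KO. Its groups overlapped (change -0.15, adjusted p = 0.217 in limma), and its second probe moved the other way, by 0.49 (adjusted p = 0.00922 in limma). Nbr1, a receptor related to p62, did not pass either.

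**Figure D3:**
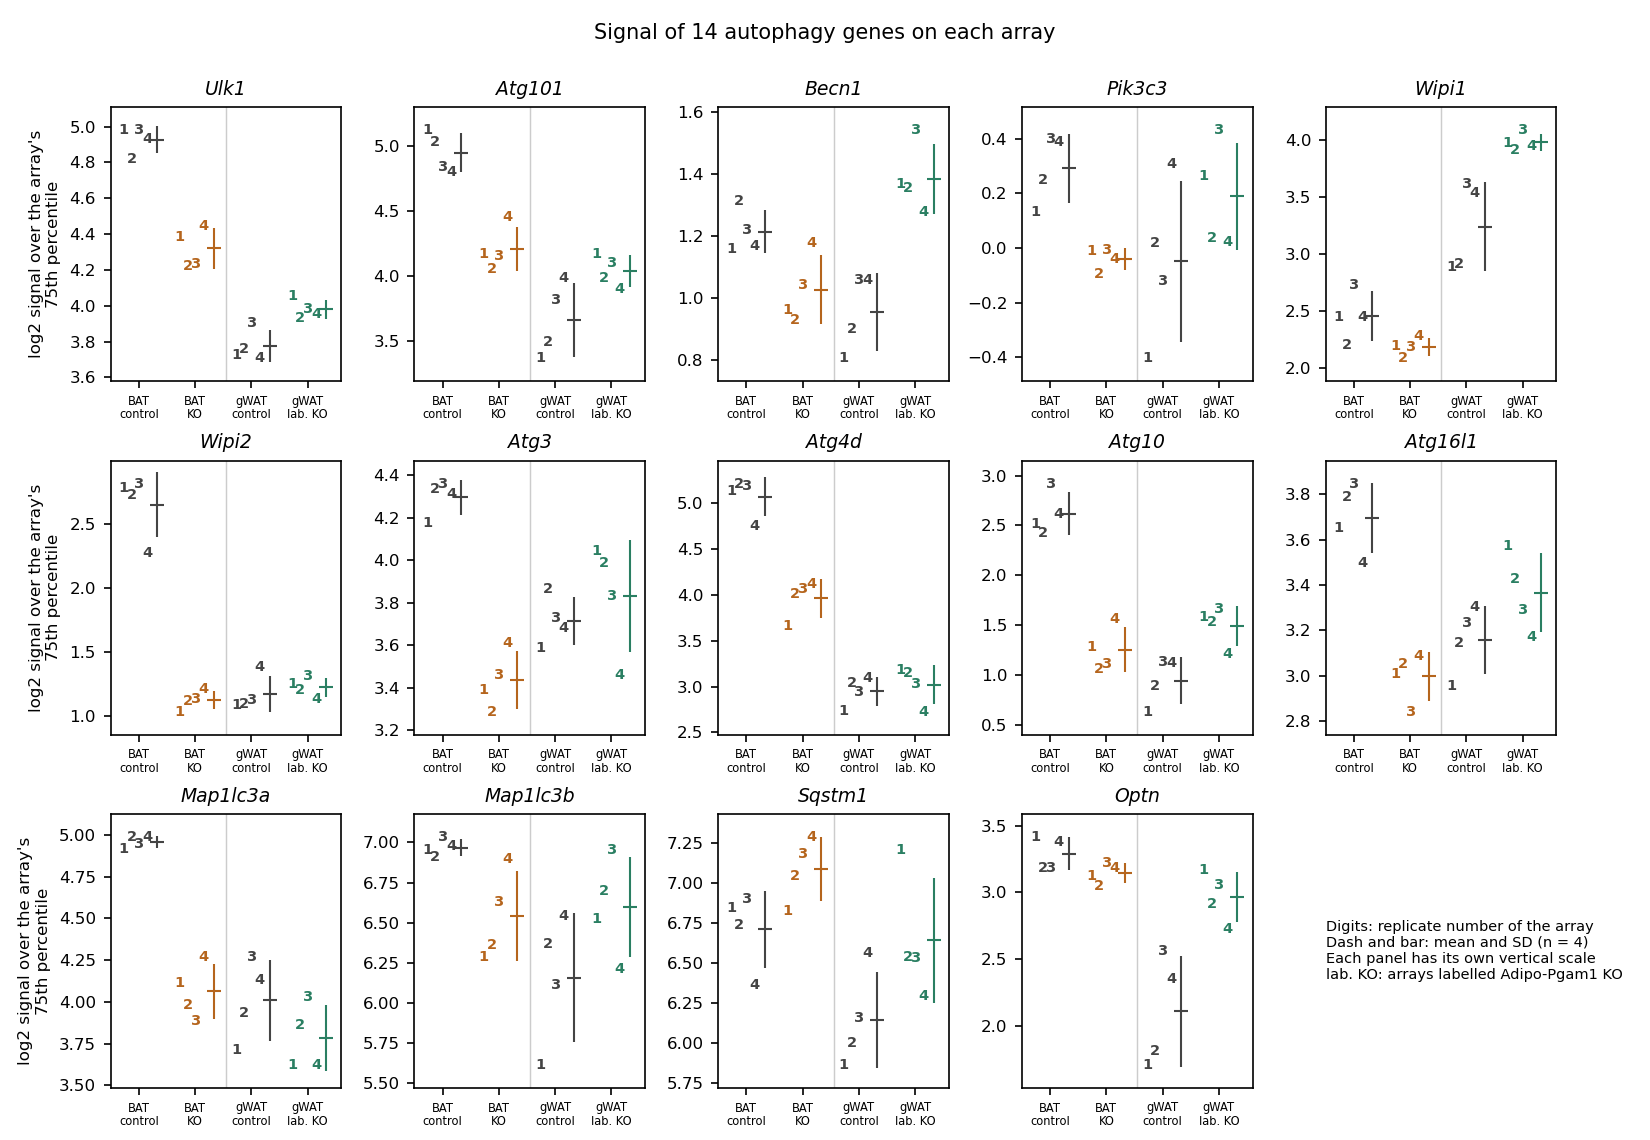
Log2 signal over the array's 75th percentile for 14 autophagy genes on each of the 16 arrays; digits are replicate numbers, and the dash and bar give the mean and SD of each group (n = 4). In BAT the KO digits of Wipi2, Atg10, Atg4d, Atg3 and Map1lc3a lie wholly below the control digits, and in gWAT control replicate 1 is often the lowest digit of its group.

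In gWAT, fewer autophagy genes differed, and those that did were higher in the labelled KO arrays. These were Becn1, Wipi1, Atg4a, Atg10 and Optn, 5 of 33 (15.2%), beside 17.8% of all 14149 genes in either direction and 9.99% of them higher. None of the 33 was lower by its brightest probe, beside 7.85% of all genes. A dimmer probe of Rb1cc1, tested on its own, was lower by -0.71 and passed (adjusted p = 0.00754 in limma). The other probes of that gene did not pass. Rb1cc1, at -0.35 without passing (adjusted p = 0.0757 in limma), did pass as lower with quantile normalization (-0.42), with scaling by Actb and Rplp0 (-0.41) and with all 16 arrays in 1 fit, and Map1lc3a did so with normexp (-0.47). The share of genes changed was near the background here as well. In all, 27 differences were positive and 6 negative, with a median of 0.21 beside 0.05 for all genes. The groups did not overlap for 9 of 33 genes, beside 24.2% of all genes. Quantile normalization gave 20 positive and 13 negative differences, with a median of 0.09. The calls were fragile. None of the 5 passed without control replicate 1 or 2 or without replicate 1, 2 or 3 of the labelled KO arrays, and 3 passed without control replicate 3 or 4. None passed with the slide as a fixed block. All 4 labelled KO arrays lay above the control on their slide for each of the 5 genes. That control is among those behind the calls, so this is no separate check. Over the 33 genes the median against that control was 0.05, with 17 positive and 16 negative.

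Wipi1 was at 2.89, 2.91, 3.62 and 3.53 in gWAT controls and at 3.97, 3.91, 4.09 and 3.95 in the labelled KO arrays. The labelled KO arrays were close to each other and above all controls, which spread widely. The change was 0.74 (standard error 0.19, adjusted p = 0.0324 in limma), and 0.45 against the control on the same slide. The second probe of Wipi1 passed too, at 0.96 (adjusted p = 0.0153 in limma). Optn was at 1.70, 1.81, 2.56 and 2.35 in controls and at 3.17, 2.91, 3.05 and 2.73 in the labelled KO arrays. It had the largest change of the 33 genes in gWAT, 0.86 (standard error 0.21, adjusted p = 0.0279 in limma), a level 1.81 times higher, and its second probe passed too, at 1.19 (adjusted p = 0.015 in limma). Becn1 was at 0.80, 0.90, 1.06 and 1.06 in controls and at 1.37, 1.35, 1.54 and 1.28 in the labelled KO arrays, a change of 0.43 (standard error 0.12, adjusted p = 0.0417 in limma) without overlap.

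Atg10 was at 0.63, 0.89, 1.13 and 1.12 in gWAT controls and at 1.58, 1.53, 1.66 and 1.21 in the labelled KO arrays. It rose by 0.55 (standard error 0.16, adjusted p = 0.0465 in limma), whereas its second probe differed by 0.20 and did not pass (adjusted p = 0.376 in limma). Atg4a rose by 0.49 (adjusted p = 0.035 in limma). A dimmer probe of Atg4b, tested on its own, was higher by 0.64 and passed (adjusted p = 0.0294 in limma), while its brightest probe did not. By their brightest probes, Atg10 and Atg4a were the only members that passed in both tissues, lower in BAT and higher in gWAT.

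Sqstm1 was at 5.86, 6.00, 6.15 and 6.56 in gWAT controls and at 7.21, 6.53, 6.53 and 6.30 in the labelled KO arrays. Only replicate 1 of the labelled KO arrays lay above all controls, and the other labelled KO arrays lay within the range of the controls. The difference of 0.50 (standard error 0.23) did not pass (adjusted p = 0.156 in limma), while its second probe differed by 0.66 and passed (adjusted p = 0.0415 in limma). Map1lc3b was at 5.61, 6.37, 6.11 and 6.54 in controls and at 6.53, 6.70, 6.96 and 6.21 in the labelled KO arrays, a difference of 0.44 within overlapping groups (adjusted p = 0.217 in limma). Ulk1 was at 3.73, 3.76, 3.90 and 3.71 in controls and at 4.05, 3.93, 3.98 and 3.95 in the labelled KO arrays. Its groups did not overlap, but the difference of 0.21 did not pass (adjusted p = 0.207 in limma).

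The genes that were lowest in BAT of Adipo-Pgam1 KO had no such difference in gWAT. Wipi2 was at 1.09 to 1.12 in 3 gWAT controls and 1.38 in the other and at 1.25, 1.20, 1.31 and 1.13 in the labelled KO arrays, a difference of 0.05 (95% interval -0.22 to 0.32). Atg4d was at 2.73, 3.03, 2.95 and 3.09 in controls and at 3.18, 3.15, 3.03 and 2.73 in the labelled KO arrays, a difference of 0.07. Atg3 was at 3.59, 3.86, 3.73 and 3.68 in controls and at 4.04, 3.99, 3.83 and 3.46 in the labelled KO arrays, and differed by 0.12. These groups overlapped throughout, and the intervals leave out changes of the size seen in BAT.

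The other genes followed by array in gWAT did not pass. Atg101 was at 3.37, 3.49, 3.81 and 3.99 in controls and at 4.17, 3.98, 4.10 and 3.90 in the labelled KO arrays (difference 0.37). Atg16l1 was at 2.96, 3.14, 3.23 and 3.30 in controls and at 3.57, 3.43, 3.29 and 3.17 in the labelled KO arrays (difference 0.21). Pik3c3 was at -0.40, 0.02, -0.12 and 0.31 in controls and at 0.26, 0.04, 0.43 and 0.02 in the labelled KO arrays (difference 0.24). Their groups overlapped, in each case with control replicate 4 inside the range of the labelled KO arrays. Map1lc3a was at 3.71, 3.93, 4.27 and 4.13 in controls and at 3.62, 3.86, 4.03 and 3.62 in the labelled KO arrays. It was among the 6 genes with a negative difference, -0.23, and its groups overlapped.

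The cell makeup of gWAT also moved with the label. Brown adipocyte markers were higher for 5 of the 7 tested (median 3.41). Their summed signal was 7.25 to 13.4 times the 75th percentile in controls and 62.8 to 168 in the labelled KO arrays, with Ucp1 and Zic1 not well above background on any control array and Zic1 on none of the labelled KO arrays. Macrophage markers were higher for 3 of 10, with sums of 68.6 to 93.8 and 76.3 to 249. White and general adipocyte markers were lower for 2 of 8, with sums of 2142 to 3277 and 1560 to 2252. Of the 5 genes of the male reproductive tract, which lies beside this depot, none was well above background on every array of a group, but single gWAT arrays had signal. Adam7 was at 0.03 and Lcn8 at -0.85 in control replicate 1, the array lowest for most autophagy genes, Lcn5 was at -0.05 in replicate 2 of the labelled KO arrays, and Lcn8 was at -0.23 and Adam7 at -0.74 in replicate 3. Adam7 was well above background on 1 control array and 3 labelled KO arrays. None of the 5 gWAT calls held when any one of these 3 arrays was left out. They were lost too without control replicate 2, where Adam7 was at -6.55 and Lcn8 at -6.38. The same was so without replicate 1 of the labelled KO arrays, where Adam7 was at -2.52 and Lcn8 at -6.39. All 5 calls held without replicate 4 of the labelled KO arrays, where Adam7 was at -3.01 and Lcn8 at -2.52. The part of these cells in the gWAT differences was not tested.

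The difference between the tissues was tested as an interaction over all 16 arrays, as the gWAT change minus the BAT change. It passed for 20 of the 33 genes (60.6%), all of them more positive in gWAT, whereas 48.3% of all 14820 genes passed, 27.4% more positive and 21% more negative in gWAT. The median over the 33 genes was 0.66, beside 0.07 for all genes. With quantile normalization 17 genes passed as more positive in gWAT, and Atg13 and Rb1cc1 as more negative. Of the 20 genes, 17 had a negative change in BAT and a positive one in gWAT, and 17 were among the 18 lower genes of BAT. The largest differences were those of Atg10, 1.91 (standard error 0.22, adjusted p = 2.33e-05 in limma), and Wipi2, 1.58 (standard error 0.17, adjusted p = 1.54e-05 in limma). Those of Atg4d, Atg101, Wipi1 and Optn were 1.18, 1.12, 1.01 and 1.01. The second probe of Atg10 gave a smaller difference, 1.02 (adjusted p = 0.00118 in limma).

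By role, the interaction passed for 4 of 5 genes of membrane expansion, 8 of 10 conjugation genes, 3 of 5 of the Atg8 family, and 2 of 5 in each of the kinase complexes. Of the cargo receptors only Optn passed, and Sqstm1 differed between the tissues by 0.12 (adjusted p = 0.751 in limma), its changes being 0.38 in BAT and 0.50 in gWAT, and its interaction turned to -0.34 with quantile normalization. With the slide as a fixed block 6 interactions passed, those of Ulk1, Wipi2, Atg3, Atg4a, Atg4c and Atg10. The calls of Pik3c3, Atg7 and Atg9a were each lost when some single arrays were left out: Pik3c3 in 4 fits (adjusted p up to 0.0609), Atg7 in 7 (up to 0.0637) and Atg9a in 10 (up to 0.0784). The other 17 held in all 16 such fits.

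In controls, the machinery stood higher in BAT than in gWAT. Of the 33 genes, 25 passed (75.8%), 22 of them higher in BAT (66.7%) and 3 lower, whereas 64.7% of all 14304 genes passed and 35.4% were higher in BAT. The median difference was 0.57, beside 0.10 for all genes, and the groups did not overlap for 24 genes, beside 60.8% of all genes. This comparison uses the same control arrays as those above, so the 16 genes that were higher in BAT controls and lower in BAT of Adipo-Pgam1 KO are a count and no independent evidence. For Wipi2 and Atg10, levels in BAT of Adipo-Pgam1 KO were near those of gWAT: Wipi2 averaged 2.65 in BAT controls, 1.12 in BAT of KO and 1.17 in gWAT controls, and Atg10 averaged 2.62, 1.26 and 0.95. The BAT arrays of KO and BAT control replicate 4 shared a slide with gWAT control replicates 1, 2 and 3. BAT control replicates 1, 2 and 3 lay on another slide.

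**Figure D4:**
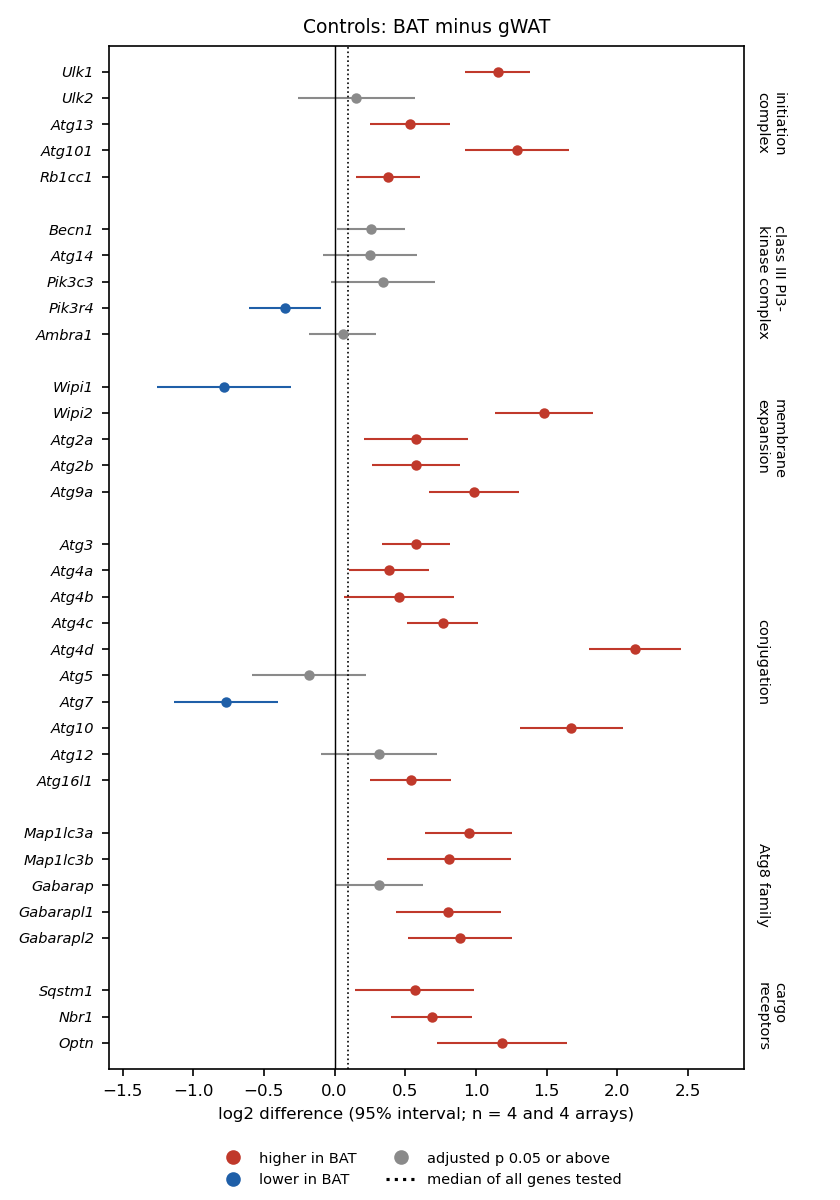
Log2 difference of the 33 autophagy genes between BAT and gWAT of control mice, with 95% intervals from limma (n = 4 arrays per depot), grouped by role; the dotted line is the median of all genes tested. Red points, 22 genes, were higher in BAT and blue points, Pik3r4, Wipi1 and Atg7, were lower.

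Atg4d differed most between the depots, by 2.13 (standard error 0.14, adjusted p = 5.36e-06 in limma), followed by Atg10 at 1.67, Wipi2 at 1.48, Atg101 at 1.29, Optn at 1.19 and Ulk1 at 1.15. All of these kept apart without overlap. The second probe of Atg10 differed by only 0.61 (adjusted p = 0.0128 in limma). The 3 genes lower in BAT were Wipi1 (-0.79), Atg7 (-0.77) and Pik3r4 (-0.35), the last being the Vps15 regulatory subunit. The pair of WIPI genes thus ran in opposite directions. The Atg8 family was higher for 4 of 5 genes, and all 3 cargo receptors were higher, Sqstm1 by 0.57 and Nbr1 by 0.69. Gabarapl1 turned to -0.09 and Sqstm1 to -0.04 under quantile normalization. The calls of Atg4a, Atg4b, Pik3r4 and Sqstm1 were lost when some single control arrays were left out (adjusted p up to 0.0672, 0.112, 0.062 and 0.0659). With the slide as a fixed block 16 genes passed. Brown adipocyte markers were higher in BAT for 9 of 9 and macrophage markers lower for 9 of 10, and their part in these differences was not tested.

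The promoters of the genes were read for letters bound by factors known to act on autophagy genes. RefSeq promoters, from 250 bases before to 50 after the start on GRCm38.p6, were at hand for 27 of the 33 genes. The E-box CACGTG, the core of the site of Tfeb and Tfe3, the best-known activators of lysosomal and autophagy genes, searched as these letters, was found in 4 of the 27 genes (14.8%), beside 8.09% of all 27025 genes. These 4 stretches are shown because the set holds genes that were lower in BAT (Atg3, Atg7) and genes that did not pass there (Atg5, Atg14). The capitals mark the E-box, which reads the same on both strands, with up to 25 bases on each side, 5′ to 3′ along the gene. Atg3 carries a pair of E-boxes, 94 and 71 bases before its start, and that of Atg14 begins 1 base before its start.
Atg3, chr16:45158710-45158788, plus strand: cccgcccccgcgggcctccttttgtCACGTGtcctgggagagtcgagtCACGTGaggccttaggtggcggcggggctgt
Atg7, chr6:114670939-114670994, plus strand: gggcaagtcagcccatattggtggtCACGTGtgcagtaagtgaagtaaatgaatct
Atg5, chr10:44268300-44268355, plus strand: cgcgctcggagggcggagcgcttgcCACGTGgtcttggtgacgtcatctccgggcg
Atg14, chr14:47568405-47568460, minus strand: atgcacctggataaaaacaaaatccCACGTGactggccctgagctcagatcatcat

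The E-box was present in 2 of the 15 genes lower in BAT that had a promoter and in 2 of the other 12. The core of the antioxidant response element, TGACNNNGC, searched on both strands, was found in Ulk2, Atg13 and Map1lc3b, 3 of 27 (11.1%), beside 14.0% of all genes. The site of Atf4 with C/EBP, TGATGNAAT, and the forkhead site GTAAACA were found in none of the 27, beside 1.08% and 4.05% of all genes. A match is a run of letters in this window and no measured binding.

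Around these 33 genes, 59 genes of related lists were followed as well. In BAT 10 were higher and 29 lower of 58 tested (17.2% and 50%), beside 27.5% and 34% of all genes. In gWAT 9 were higher and 3 lower of 57 (15.8% and 5.26%), beside 9.99% and 7.85% of all genes. Among transcription factors of autophagy and lysosomal genes, none of 8 passed in gWAT, beside 17.8% of all genes. In BAT 5 were higher and 3 lower of 9 tested (88.9%, beside 61.5% of all genes). Foxo1 was lower by -1.95 (standard error 0.23, adjusted p = 1.25e-04 in limma) and Atf4, the factor of the integrated stress response, was higher by 1.64. The factors of the E-box went apart: Tfeb changed by -0.88 (adjusted p = 1.69e-04 in limma), and Tfe3 by 0.22 (adjusted p = 0.039 in limma), which became -0.37 under scaling by Actb and Rplp0. The call of Tfe3 held in only 1 of 8 fits with an array left out. Tfeb and Tfe3 were named after their values were seen.

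Among regulators of initiation and of the PI3-kinase complex, 3 were higher and 6 lower of 16 in BAT (56.2%). In gWAT 1 of 16 was higher (6.25%), and the shares of all genes that passed were 61.5% in BAT and 17.8% in gWAT. Bcl2, which binds Becn1, was higher in BAT by 2.71 (standard error 0.23, adjusted p = 3.10e-05 in limma), and Atg9b, the relative of Atg9a, was lower by -1.91. In gWAT Tmem41b, a lipid scramblase of the endoplasmic reticulum, was higher by 0.88, a call that held in 1 of 8 fits with an array left out. Among fusion genes, 1 was higher and 7 lower of 15 in BAT (53.3%), with Vps16 at 0.59 and Tecpr1 at -1.53. In gWAT 4 of 15 were higher (26.7%), led by Vps11 at 0.70, which held in 2 of 8 such fits. Vps11 and Vps16 belong to the tethering complexes that bring autophagosomes to lysosomes, and the change of Vps16 was lost under scaling by Actb and Rplp0 (adjusted p = 0.995 in limma).

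Of the other selective receptors, in BAT 13 were lower and 1 higher of 18 (77.8%, beside 61.5% of all genes). In gWAT 3 were lower and 4 higher (38.9%, beside 17.8% of all genes). Bnip3, a receptor for mitochondria known to follow hypoxia signals, was lower in both tissues, by -2.39 in BAT (standard error 0.15, adjusted p = 9.38e-06 in limma) and by -0.99 in gWAT (adjusted p = 0.0273 in limma), where it held in 3 of 8 fits with an array left out. Stbd1, which ties glycogen to Gabarapl1, was higher in both, by 3.12 in BAT (standard error 0.14, adjusted p = 3.02e-06 in limma) and by 1.73 in gWAT (adjusted p = 0.00356 in limma). Both changes differed between the tissues in the interaction, by 1.39 for Bnip3 and by -1.39 for Stbd1, so that each was smaller in gWAT.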

How the data were processed

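RNA of 16 tissue samples was hybridized by the authors to Agilent SurePrint G3 mouse arrays with 1 colour (Cy3), and scanned with Agilent Feature Extraction 10.7.1.1 per the labels. The deposited scanner files give a background-subtracted signal intensity per spot. A deposited table gives normalized values on a linear scale, each close to the ratio of a probe's intensity to the 75th percentile of its array, and was used as an alternative. The authors' methods name a t-test in GeneSpring, run here as the methods' t-test.

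Here, spots of a probe were averaged, scaled to the array's 75th percentile and put on the log2 scale. Of 35886 probes with a RefSeq accession, 32994 matched a symbol. The brightest probe stood for a gene, and a gene entered a test where at least 1 of the groups compared had it well above background on each of its 4 arrays. Groups were compared with limma 3.58.1 in R 4.3.3, with Benjamini-Hochberg adjustment over all genes tested, and the steps were tested on simulated data. No 2 arrays correlated above 0.991 in log2 values. The labels name no separate pairs of tissues, the number of arrays limits the precision, and p-values measure the spread between these samples. Alternatives were 6 other normalizations, no filter on dim probes, the mean of a gene's probes, slide and replicate blocks, all arrays in 1 fit, the methods' t-test and leaving out each array. Testing each probe as its own feature, and leaving out BAT KO replicates 1 and 3 together, were chosen after seeing the data. The members and lists were chosen with earlier results of these data known. Values by array were given for Sqstm1, Map1lc3b, Ulk1 and Becn1, for the largest change past the threshold in each role and tissue, and for up to 8 members with opposite signs and the largest interactions. Of each related list, the largest measured change past the threshold in each direction and tissue was named.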

Additional observations from a re-analysis of the deposited data

Results flagged for a closer look

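The 20 genes whose genotype change differed between gWAT and BAT in the interaction test are given here with the gWAT change minus the BAT change on the log2 scale. The values were 0.81 for Ulk1, 1.12 for Atg101, 0.62 for Becn1, 0.57 for Pik3c3, 1.01 for Wipi1, 1.58 for Wipi2, 0.67 for Atg2a, 0.78 for Atg9a, 0.97 for Atg3 and 0.88 for Atg4a. They were 0.82 for Atg4b, 0.66 for Atg4c, 1.18 for Atg4d, 0.55 for Atg7, 1.91 for Atg10, 0.91 for Atg16l1, 0.67 for Map1lc3a, 0.86 for Map1lc3b, 0.90 for Gabarapl2 and 1.01 for Optn. Becn1, Wipi1 and Optn are the 3 of these that did not pass in BAT alone, and they passed in gWAT.

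A single array stood far from the other 3 of its group, by the gap to its neighbour over the group's range, in 8 of the 132 groups checked (33 genes in 4 groups), where chance gives about 1 in 20. In BAT controls these were replicate 4 for Wipi2 (2.28, next 2.73) and Atg2a (3.42, next 3.48), and replicate 1 for Gabarapl1 (8.28, next 8.03). In BAT of Adipo-Pgam1 KO it was replicate 4 for Atg7 (1.63, next 1.80) and Gabarapl2 (5.15, next 4.86). In gWAT it was control replicate 4 for Wipi2 (1.38, next 1.12) and replicate 4 of the labelled KO arrays for Gabarap (6.23, next 6.50) and Gabarapl2 (4.67, below the other 3). Of these 8 cases, 7 lie on arrays numbered 4, and some of them share an array. Replicate 4 of both KO groups was 14 weeks of age. Control replicate 4 lay on the slide of the KO arrays in each tissue. Whether age or slide played a part was not tested.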

How the results depend on the processing

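For the count of the 33 genes past the threshold, the 19 of BAT became 31 with scaling by Actb and Rplp0 and 17 to 20 with an array left out, and under the other alternatives the count was within 1.5 times. Counts hide changed genes: spike-in scaling gave 18, of which 6 were among the 19 with the same direction, and the slide block 13, of which 12 were. Leaving out BAT KO replicates 1 and 3 together, chosen after seeing the data, gave 16 in BAT and 16 interactions. The gWAT count of 5 became 21 with spike-in scaling, 1 with median centring, 0 with no filter on dim probes, 0 with the slide as a fixed block, 2 by the methods' t-test after Benjamini-Hochberg and 9 at its unadjusted threshold, and 0 to 5 with an array left out. The count of 20 interactions became 32 with Actb and Rplp0 and 6 with the slide block (18 to 21 with an array left out), and that of 25 between depots became 16 with the slide block (21 to 27). The BAT median of -0.33 became 0.21 with spike-in scaling and -0.92 with Actb and Rplp0 (-0.38 to -0.31 with an array left out), and the gWAT median of 0.21 became 0.65 with spike-in scaling, 0.094 with quantile normalization, 0.13 with normexp, 0.33 with median centring and 0.053 with the slide block (0.07 to 0.27 with an array left out). The interaction median of 0.66 became 0.38 with quantile normalization, 0.38 with normexp, 1.20 with Actb and Rplp0 and 0.46 with the slide block (0.57 to 0.71). The depot median of 0.57 became 0.26, 0.29 and 0.90 with quantile, normexp and Actb and Rplp0, and 0.34 with spike-in scaling (0.47 to 0.59). The cause of these shifts was not tested.

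With the replicate number as a block, 18 genes passed in BAT, 0 in gWAT, 20 for the interaction and 23 between depots. Same-numbered control and KO arrays, which are different mice, deviated with correlations from -0.01 to 0.17 in BAT and from -0.12 to 0.51 in gWAT. Same-numbered BAT and gWAT arrays did so with -0.04 to 0.17 in controls and -0.12 to 0.25 in KO. Their own number was the best partner for 2 of 4 arrays in each. These correlations cannot decide whether same-numbered BAT and gWAT samples came from 1 mouse.

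Of the genes given with values, these turned sign. In BAT with spike-in scaling, Becn1 was 0.35, Pik3c3 0.21, Wipi1 0.27, Atg2b 0.27, Atg4a 0.15, Atg4c 0.13, Map1lc3b 0.12, Optn 0.40, Rb1cc1 0.46, Atg12 0.38, Gabarap 0.35 and Gabarapl1 0.25. With Actb and Rplp0, Atg13 was -0.26, Sqstm1 -0.21, Atg5 -0.46, Tfe3 -0.37 and Vps16 -0.00098. Optn was 0.029 with quantile normalization, 0.065 with normexp, 0.17 over all its probes and 0.49 by its other probe, and Atg4b was 0.0087 by its other probe. With quantile normalization Rb1cc1 was 0.0052, Atg12 0.088, Gabarap 0.052 and Gabarapl1 0.20, and with normexp Atg12 was 0.092, Gabarap 0.052 and Gabarapl1 0.16. With the slide block Rb1cc1 was 0.023 and Atg12 0.085, and without BAT KO replicates 1 and 3 they were 0.041 and 0.015. In gWAT the slide block gave -0.12 for Pik3c3, -0.16 for Wipi2 and -0.069 for Atg4d. Wipi2 was -0.0065 with Actb and Rplp0, Atg3 was -0.031 with quantile normalization, Map1lc3a was 0.22 and Rb1cc1 0.088 with spike-in scaling, and Atg4d was -0.036 with quantile, -0.065 with normexp and -0.0011 without control replicate 1. Between depots Gabarapl1 was -0.086 with quantile and -0.087 with normexp, Sqstm1 was -0.042 with quantile, and the other probes of Nbr1 and Rb1cc1 gave -0.19 and -0.0020. None of the 20 interactions past the threshold turned sign. That of Sqstm1, which was not past it, was -0.34 with quantile normalization, -0.22 with normexp, -0.64 with the slide block, -0.067 without replicate 1 of the labelled KO arrays of gWAT and -0.37 by its other probe. Signal over background did not limit these genes, since all were well above background on all arrays.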
